A study of Mus musculus with 9 samples.

Results

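The 3 kidney libraries of the control group were described across all genes, by level, rank and spread between libraries. They were chosen by their sample labels alone, from a series of 9 kidney libraries, and no group was set against another. The mice were wild type (WT) C57/BL6; one label calls them untreated and another records saline given by gavage, and age and sex are not given in the labels used here. The other libraries of the series come from Itgam-IRES-hCD89 mice, with or without GQYS given by gavage. They enter the recovery of whole reads and gene lengths, and 1 measurement on gene length. Nothing in the labels says that the 3 libraries came from separate animals, so every SD here measures the spread between libraries, which may be technical.

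The kidney filters plasma in the glomerulus and then recovers most of the filtrate along the nephron. The proximal tubule takes back glucose, phosphate, amino acids and filtered protein, and makes glucose and ammonia. The thick ascending limb of Henle's loop recovers salt without water, and the distal convoluted tubule, connecting tubule and collecting duct set the final sodium, calcium, acid and water content of the urine. Nearly all of this transport is driven by the Na,K-ATPase and fed by mitochondria. In RNA from whole tissue, fewer cells of a type and less RNA per cell cannot be told apart, so levels below describe the tissue and not any 1 cell type.

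Values are deposited FPKM, which are read fragments scaled to gene length and to the library total, and where 3 values stand together they belong to WT replicates 1, 2 and 3 in that order. The table has 26139 gene rows. Whole reads recovered from the FPKM steps came to 35160648, 38161564 and 30893569 per library. A gene counted as present here had an FPKM of at least 1 in all 3 libraries. That was true of 10705 rows, 41.0% of the table, while 4426 rows were at 0 in all 3. Of rows that RefSeq names as protein coding, 10232 of 17544 were present (58.3%), against 335 of 7095 named as long noncoding RNA (4.72%). The promoters printed next belong to the highest nuclear gene and to the markers of 3 nephron segments.

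Each stretch is the 150 bases before the RefSeq start site, 5′ to 3′ on the gene's own strand, in build GRCm38.p6. They are shown because these genes lead the ranking or mark the segments described further on. Capitals mark matches, on either strand, to TATAAA, the core promoter box upstream of many start sites, to GTTAAT, to GGGCGG, the Sp1 box, or to CCAAT, the NF-Y box. Kap lies at chr6:133853668-133853817 on the minus strand, Slc34a1 at chr13:55399498-55399647 on the plus strand, Umod at chr7:119479263-119479412 on the minus strand and Aqp2 at chr15:99578906-99579055 on the plus strand.
Kap: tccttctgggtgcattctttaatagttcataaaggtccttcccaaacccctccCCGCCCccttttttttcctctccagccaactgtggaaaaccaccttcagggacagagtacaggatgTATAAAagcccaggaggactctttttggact
Slc34a1: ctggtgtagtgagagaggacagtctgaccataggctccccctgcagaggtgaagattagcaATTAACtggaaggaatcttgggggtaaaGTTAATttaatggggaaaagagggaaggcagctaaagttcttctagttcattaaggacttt
Umod: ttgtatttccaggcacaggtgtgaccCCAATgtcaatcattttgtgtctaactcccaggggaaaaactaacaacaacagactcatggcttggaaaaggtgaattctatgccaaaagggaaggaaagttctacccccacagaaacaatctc
Aqp2: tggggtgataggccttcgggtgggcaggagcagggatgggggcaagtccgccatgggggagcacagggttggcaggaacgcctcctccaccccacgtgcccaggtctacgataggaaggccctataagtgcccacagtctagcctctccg

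The Kap promoter held TATAAA beginning 31 bases before the start site and the Sp1 box on the other strand beginning 97 bases before it. The stretch before Slc34a1 held GTTAAT 61 bases before the start and its reverse complement ATTAAC 89 bases before it, and no TATAAA. Umod held 1 CCAAT, 124 bases before the start. No match to these letters was found in the Aqp2 stretch, which had 6 CG pairs against 0 in those of Slc34a1 and Umod. A match is a run of letters and no evidence that a protein binds there.

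Promoter letters were then counted by level in the 250 bases before each RefSeq start. A window counted once for a motif however many matches it held, on both strands, and matches to different motifs may overlap. In all 32851 windows, TATAAA was present in 12.4%, GTTAAT in 6.43%, GGGCGG in 32.7% and CCAAT in 33.8%. For genes with a mean FPKM of at least 1 (8996 matched of 11306, 11409 windows), GGGCGG was in 57.7% of windows and TATAAA in 6.62%. For genes at 0 in all 3 libraries (2948 matched of 4426, 3574 windows), GGGCGG was in 15.8% of windows and TATAAA in 14.7%. The 100 highest nuclear rows (76 matched, 89 windows), which are among the genes with a mean of at least 1, differed from both groups. TATAAA was in 17 of their windows (19.1%), GTTAAT in 10 (11.2%) and GGGCGG in 36 (40.4%). CCAAT differed little between these groups, from 33.3% at 0 to 36.0% in the 100 highest. Median GC content of the windows was 59.6% for genes with a mean FPKM of at least 1, 55.2% for the 100 highest and 48.8% for genes at 0. The order of these groups by GGGCGG was that of their GC content, and the order by TATAAA or GTTAAT was not its reverse, since the 100 highest had the largest shares of both. The part of base composition in these shares was not tested.

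A large part of the signal lay in few genes. The 10 highest rows took 40.2%, 29.5% and 27.5% of summed FPKM, and the 100 highest took 54.9%, 46.2% and 44.8%, or 48.6% ± 5.51 (SD, n = 3). The number of rows that together held 50% of the total was 58, 144 and 162. Replicate 1 thus had the most concentrated profile, and the other libraries lay close together. Only 26 rows reached an FPKM of 1000 in all 3 libraries, 551 reached 100 and 4026 reached 10.

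**Figure D1:**
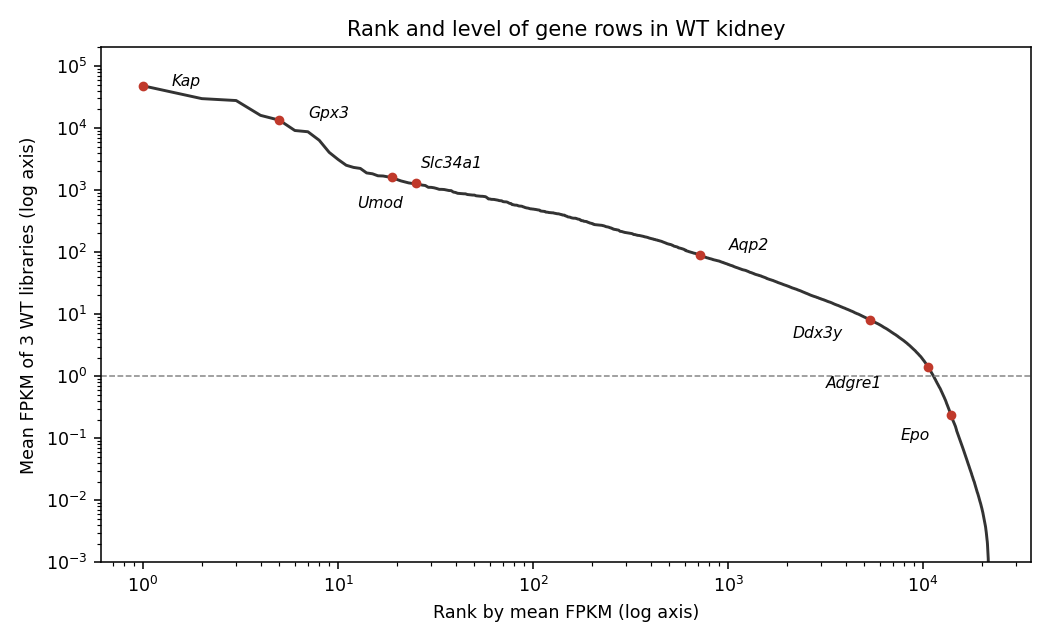
Mean FPKM of the 3 WT libraries (vertical, log axis) against rank by mean FPKM (horizontal, log axis) for every gene row above 0.001 FPKM, with 8 genes marked and FPKM of 1 as a dashed line. Kap stands first at a mean of 47977, Slc34a1 and Umod lie close together above 1000, Aqp2 is near 100, and Epo falls below 1.

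Kap, the androgen-regulated kidney protein of the mouse proximal tubule, was the highest row in every library, at 65688, 42320 and 35922 FPKM. It alone held 11.4%, 8.87% and 7.76% of summed FPKM. Gpx3, the secreted glutathione peroxidase that the kidney releases into plasma, came next among nuclear genes at 14369, 11634 and 14196. Fth1, the ferritin heavy chain, followed at 4720, 3601 and 3854. These genes held ranks 1 to 3 among nuclear genes in all 3 libraries. Below them the order was loose: Eef1a1, a translation elongation factor, was 11 in replicate 1 and 5 in both others, and Umod was 35, 12 and 21. Fth1 and Eef1a1 have near-identical copies in the genome, so their reads may be shared with other rows.

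The other rows among the 30 highest nuclear genes fall into a few roles. Transport was represented by Slc27a2, a fatty acid transporter and acyl-CoA synthetase, at 2098, 1760 and 1640, by the phosphate transporter Slc34a1 at 1485, 1437 and 1889, and by the Na,K-ATPase subunit Fxyd2. Proximal enzymes included Miox, which opens inositol, at 2322, 1757 and 1595, and Acy3, a deacetylase of mercapturic acids, at 1822, 1743 and 1500. Ass1, which makes argininosuccinate for arginine synthesis, was at 1039, 1062 and 1458. Cyp4b1 was at 1566, 2681 and 2458, and Cyp2e1 was at 854, 1167 and 1247; both are cytochrome P450 oxidases, and both were lowest in replicate 1. Antioxidant and iron genes included Gpx1 (1612, 1721 and 1769), Prdx5 (1334, 989 and 1007), Selenop (872, 1451 and 1398) and the ferritin light chain Ftl1 (2880, 2314 and 2355). Akr1a1, an aldehyde reductase, ranged from 1265 to 1405 and Akr1c21, a hydroxysteroid dehydrogenase, from 1262 to 1375, the latter with close paralogs that may share reads. Klk1, the tissue kallikrein of the connecting tubule, reached 1983, 1345 and 1578. Further rows of this set were Atp5b, Tpt1, Napsa, Cyb5a, Ndrg1, Keg1, Hspa8 and Rida, with values between 697 and 1668. Leaving out mitochondrial rows, 97 of the 100 highest rows were shared by replicates 2 and 3, and 79 by replicate 1 with each of them.

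Mitochondrial transcripts were the largest single block. The 13 protein genes of the mitochondrial genome held 25.5%, 17.0% and 15.4% of summed FPKM, a mean of 19.3% ± 5.42 (SD, n = 3), and 18.6%, 10.5% and 9.15% of recovered reads. COX1, a catalytic subunit of cytochrome c oxidase, stood at 41507, 25816 and 22160, and CYTB, of the cytochrome bc1 complex, at 40960, 21863 and 20517. ND1, ND2, ND4 and ND5, all of complex I, lay between 4340 and 24422. The other 7 were lower than these 6 in every library. COX2 was at 1302, 294 and 229, ATP6 at 910, 205 and 138, COX3 at 470, 171 and 190, and ND6, the only one encoded on the light strand, at 158, 43.0 and 24.4. All 13 were highest in replicate 1. Of the low 7, ND3 was at 285, 43.6 and 53.3 and ND4L at 230, 134 and 127. No source used here says how the counting treated overlapping mitochondrial genes and their nuclear copies. Its part in these levels was not tested.

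Nuclear genes of the respiratory chain kept a steadier share when summed. The 99 rows so named, of which 95 were present, held 5.05% ± 0.162 (SD, n = 3) of summed FPKM. By single rows, 79 were highest in replicate 1 and 12 were lowest there. Atp5b, at 1000, 1585 and 1636, was among the latter. Cytosolic ribosomal proteins held 4.76% ± 0.270 over 84 rows, 81 of them present, although their many pseudogene copies may take some reads. Of these rows 71 were highest in replicate 1 and 9 lowest there. Solute carriers, the main family of membrane transporters, held 2.76% ± 0.484 over 351 rows, of which 223 were present and 25 had a mean of at least 100. Of 88 cytochrome P450 rows, 30 were present. None of the 61 olfactory receptor rows and none of the 30 vomeronasal receptor rows was present, and 37 and 16 of them were at 0 in all 3 libraries.

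Markers along the nephron were present for each segment examined except the macula densa. Slc34a1 marks the proximal tubule, Umod (uromodulin) the thick ascending limb and Aqp2 (the vasopressin-regulated water channel) the principal cells of the collecting duct. Umod was at 942, 1628 and 1267, and Aqp2 at 106, 78.6 and 83.4. Slc34a1 was the higher of the first pair in replicates 1 and 3 and Umod in replicate 2, with Slc34a1 over Umod at 1.58, 0.883 and 1.49, so their order does not hold beyond the spread. Aqp2 was far below both in every library, with Slc34a1 over Aqp2 at 14.1, 18.3 and 22.6.

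All 17 shared proximal tubule markers were present, and their summed FPKM was 10845, 10757 and 11124. After each library was rescaled to a total of 1000000 the sums were 18870, 22552 and 24024, so their evenness holds on the FPKM scale only. Besides those named above it included Slc5a2, the main glucose transporter of the kidney, at 233, 224 and 258, and the organic anion transporter Slc22a6 at 235, 299 and 319. The protein uptake receptors Lrp2 (megalin) at 91.9, 189 and 222 and Cubn (cubilin) at 30.6, 60.8 and 60.5 were lowest in replicate 1. Both have very long transcripts, and long genes were lower there in general. The part of length in the levels of Lrp2 and Cubn was not tested. Among markers of the last proximal segment, all 11 were present, led by Acy3, the aspartic protease Napsa (1259, 1319 and 1034) and the amino acid transporter Slc7a13 (498, 624 and 517). Slc5a2 exceeded Slc5a1, the glucose transporter of the last segment, by 15.8 ± 3.14 times (SD, n = 3).

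Thick ascending limb markers were all present (11 of 11), with sums of 1579, 2654 and 2263. Umod supplied most of that sum. Egf, the growth factor precursor, was at 177, 357 and 399, and Slc12a1, the furosemide-sensitive cotransporter, was at 134, 261 and 214. Each was lowest in replicate 1 by a clear margin, while replicates 2 and 3 changed places between the genes. Of 4 macula densa markers 1 was present, the vasopressin receptor gene Avpr1a at 2.49, 3.70 and 4.5, which other cells also use. Nos1 and Ptgs2 were below 0.14 throughout.

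Of the distal convoluted tubule list 8 of 9 genes were present, led by the thiazide-sensitive cotransporter Slc12a3 at 113, 178 and 254. The kinase Wnk4, which regulates it, was at 32.4, 28.6 and 31.9. In the connecting tubule list all 6 were present, with Klk1 first and S100g, the small calcium-binding calbindin, at 725, 500 and 636. Calb1, the larger calbindin, was at 41.9, 58.3 and 95.9, and the calcium channel Trpv5 at 1.37, 2.93 and 4.71. Calb1 was lowest in replicate 1 and S100g highest there, although both mark the same segment; after rescaling to a total of 1000000, S100g was highest in replicate 3.

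All 12 principal cell genes were present, with sums of 309, 303 and 334. Aqp3, the basolateral water channel, was at 46.3, 48.8 and 53.8, and Hsd11b2, which inactivates corticosterone, at 62.7, 57.7 and 67.6. The epithelial sodium channel subunits Scnn1a, Scnn1b and Scnn1g lay between 7.85 and 21.6, each lowest in replicate 1. Type A intercalated cells, which secrete acid, showed 8 of 9 markers, including Atp6v1b1 of the proton pump at 27.3, 43.6 and 53.6. Car2, carbonic anhydrase, was at 205, 163 and 196 and is also made elsewhere along the tubule. For type B cells, which secrete bicarbonate, all 4 were present. Among them Slc26a4 (pendrin) was at 13.02, 11.2 and 15.4.

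**Figure D2:**
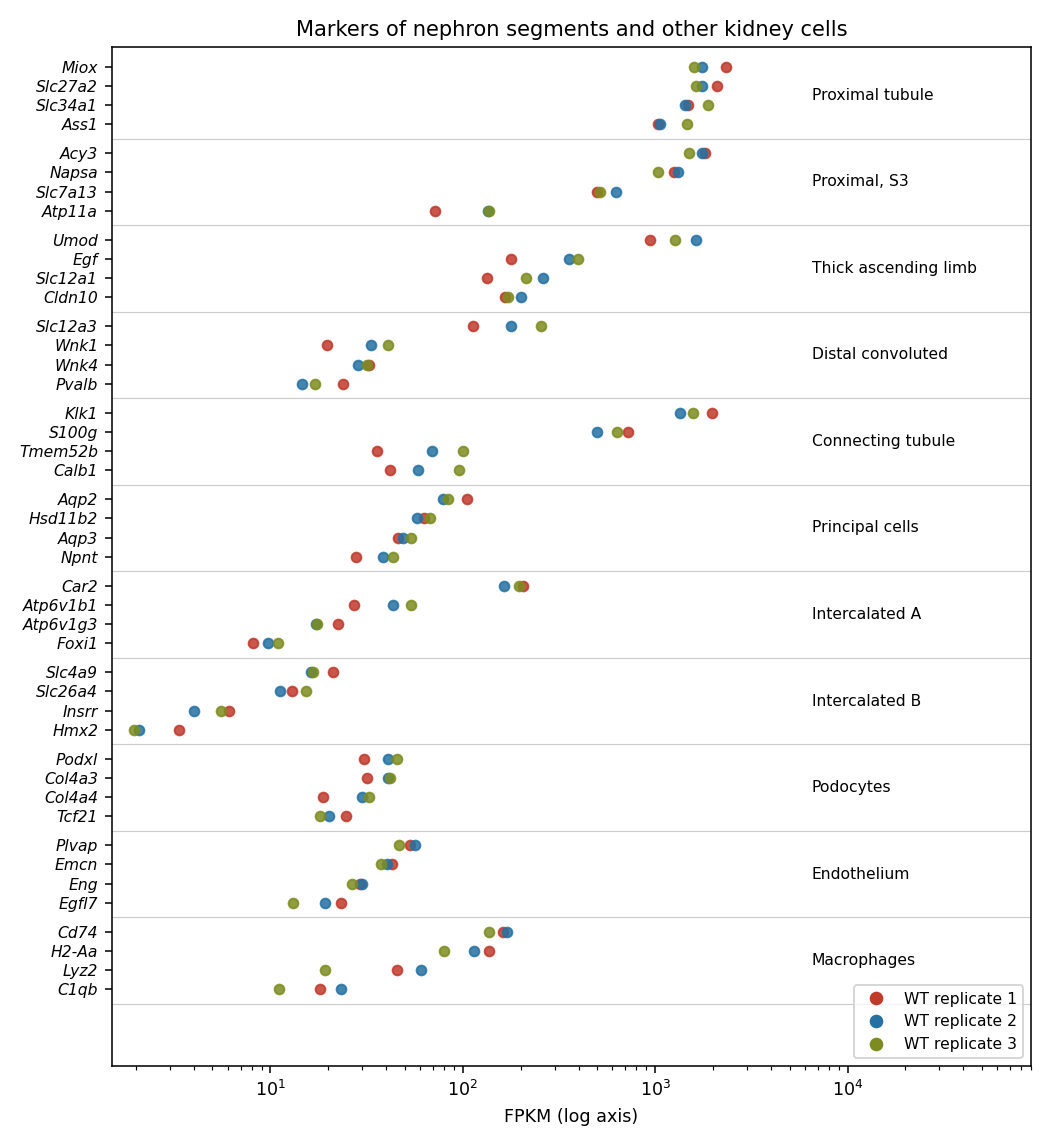
FPKM (horizontal, log axis) of the 4 highest members of 11 marker lists, with 1 point per WT library. The shared proximal tubule markers shown, Umod and Klk1 lie near or above 1000, and podocyte markers lie below 50. Of the last proximal segment, Slc7a13 lies between 498 and 624 and Atp11a lies lower. Replicate 1 is on the left for Egf, Slc12a1, Slc12a3 and Calb1 and on the right for Miox, Klk1 and Aqp2.

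Markers of cells outside the tubule were also present. Podocytes, which form the filtration barrier, had 11 of 13 markers present with sums of 166, 179 and 190. The slit diaphragm gene Nphs1 (nephrin) was at 4.45, 3.80 and 5.04. All 12 endothelial markers were present, led by Plvap at 53.2, 56.6 and 46.9 and Emcn at 42.8, 40.3 and 37.7. Ren1, the renin gene of juxtaglomerular cells, was steady at 44.1, 45.5 and 41.0. The smooth muscle gene Tagln was less even, at 45.4, 16.5 and 22.7. Of other smooth muscle genes, Acta2 was also highest in replicate 1, while Myh11 was lowest there and highest in replicate 3.

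Immune genes present were mainly those of macrophages and antigen presentation. Of that list 8 of 12 genes were present, with sums of 413, 433 and 280. Cd74, the invariant chain, was at 162, 170 and 137, Lyz2, lysozyme, at 45.5, 60.8 and 19.2, and the complement gene C1qb at 18.2, 23.4 and 11.0. Replicate 3 was lowest for 10 of the 12, and for 8 after rescaling to a total of 1000000. None of 8 T and NK cell genes and none of 9 neutrophil genes was present. Cd3e was between 0.235 and 0.450 FPKM and S100a8 between 0.165 and 1.67, and Ly6g and Camp were at 0 in all 3. Of the B and plasma cell list only Jchain, the joining chain of secreted antibody, was present (24.4, 8.60 and 7.08). Globin genes were highest in replicate 1, with Hbb-bs at 386, 215 and 194 and Hba-a1 at 292, 138 and 113. Each globin has a close copy, so the split between the copies is uncertain.

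Markers of tissues that border the kidney stood out in 1 library. All 8 urothelial genes were highest in replicate 3, with sums of 1.85, 3.79 and 21.0. The uroplakin Upk1a was at 0.608, 1.34 and 4.70, and Psca was at 0.332, 0.887 and 5.4. Fat genes showed the same library: Cfd (adipsin) was at 0, 0 and 11.4, Adipoq at 0, 0 and 2.89, and Ucp1, the uncoupling protein of brown fat, at 0, 0.0159 and 1.89. Fabp4, which endothelium also expresses, was at 81.4, 47.5 and 67.5. None of 7 adrenal genes was present, with Star below 0.24 and Cyp11b1, Cyp11b2 and Cyp21a1 at 0 in all 3 libraries. The same held for 7 skeletal muscle genes and for 5 pancreatic genes, whose highest value was 0.0487. Of 10 liver genes 5 were present, led by Ttr (transthyretin) at 108, 91.6 and 93.5, while Cps1 was at or below 0.0115.

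Genes of glucose formation and the isozymes around them were next described. Pck1, the gluconeogenic phosphoenolpyruvate carboxykinase, exceeded its mitochondrial isozyme Pck2 by 234 ± 41.4 times (SD, n = 3), and G6pc, the glucose 6-phosphatase of liver and kidney, stood at 187, 286 and 343. Of the glucose-forming list 8 of 9 genes were present. Aldoa, the muscle aldolase, was listed at only 1.42 to 2.17, a row with near-identical copies whose reads may be lost. The heart type lactate dehydrogenase Ldhb exceeded Ldha by 7.16 ± 0.471 times. Among hexokinases Hk1 was at 10.03, 17.4 and 18.2, and Hk2 and Hk3 were below 0.25. Ammonia formation from glutamine was represented by Glud1 at 167, 146 and 204. Ratios of this kind compare values per length within a library. They still carry any length difference between libraries.

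Among subunits of the Na,K-ATPase, Atp1b1, the beta subunit that brings the pump to the membrane, was at 660, 704 and 794. It exceeded Atp1b3 by 21.3 ± 2.56 times (SD, n = 3), a ratio whose spread was small beside its size. The regulatory gamma subunit Fxyd2 was at 1911, 1309 and 1237, highest in replicate 1. The length of Fxyd2 implied by the FPKM steps was 1154 bases, which puts it among the shortest of the 5 length groups used further on.

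Aquaporins were led by Aqp1, the water channel of proximal tubule and thin limb, at 227, 333 and 306. Aqp2 and Aqp3 followed, and Aqp11 was even, at 30.7, 29.1 and 29.8. Of 10 members 7 were present, and Aqp5 and Aqp9 stayed below 0.19. Among genes of hormone action, the parathyroid hormone receptor Pth1r was at 135, 135 and 178 and Kl (klotho), the FGF23 coreceptor, at 103, 133 and 162. Cyp24a1, which breaks down active vitamin D, was at 27.1, 33.0 and 35.2, and Cyp27b1, which makes it, at 0.438, 0.272 and 0.713. Epo, made by few interstitial cells, was at 0.358, 0.220 and 0.136. Glutathione genes were dominated by Gpx3, which exceeded Gpx1 by 7.90 ± 1.08 times, and Gpx2 was at 0 in all 3 libraries.

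Y-linked genes were expressed and Xist, the noncoding RNA of the inactive X chromosome, was not above 0.00361. Ddx3y was at 5.21, 9.50 and 9.74, Eif2s3y at 4.91, 6.65 and 5.19, Kdm5d at 2.23, 3.91 and 4.19 and Uty at 1.51, 3.16 and 2.99. All 4 were lowest in replicate 1. Genes known to be higher in male mouse kidney were high as well, with Kap first, Slc7a13 as above and Slco1a1, an organic anion transporter, at 59.8, 147 and 142. Genes known to be higher in female kidney were low: Slc7a12 was at 2.35, 3.65 and 4.75, Prlr at 0.547, 1.13 and 1.34, and Abcc3 at 0.232, 0.449 and 0.593.

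Hox genes, which keep a record of body position in adult tissue, were highest toward the middle of the clusters. Of 35 listed, 21 were present. Hoxd8 was the highest at 37.16, 38.01 and 45.5, followed by Hoxb6 at 22.2, 14.1 and 14.2, Hoxd9 at 15.4, 12.8 and 15.6, and Hoxa10 at 11.2, 12.3 and 10.6. The first of these was above all others in every library, while the order of Hoxb6 and Hoxd9 changed in replicate 3. Within the Hoxd cluster the genes beyond Hoxd9 were lower, with Hoxd10 at 4.01, 4.26 and 4.22, Hoxd11 below 0.51 and Hoxd13 at 0. Hoxc13 and Hoxd1 were also at 0, and Hoxb1 was at most 0.0120. In group 10, Hoxa10 and Hoxc10 (8.64, 7.72 and 9.43) were above Hoxd10 in every library.

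**Figure D3:**
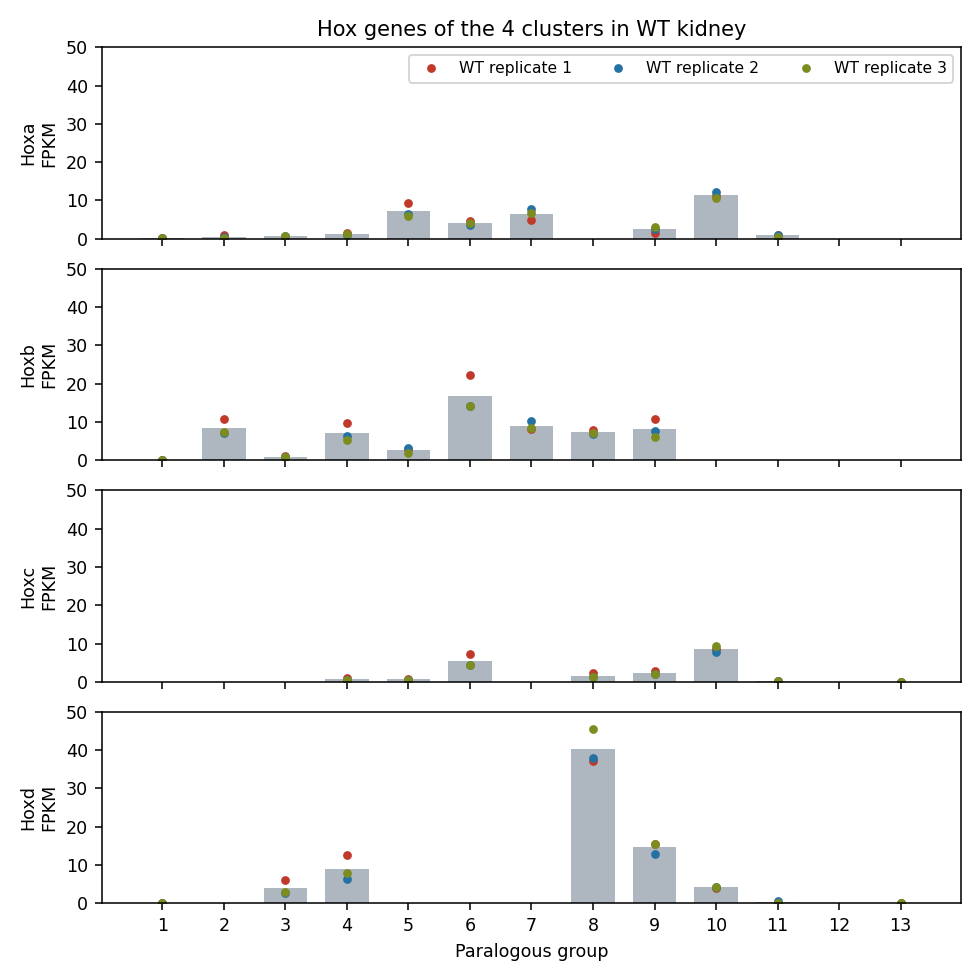
FPKM (vertical) of Hox genes by paralogous group (horizontal) in the 4 clusters, with the mean of the 3 WT libraries as bars and each library as a point; a position with no point is a gene that does not exist or is not analysed here. Hoxd8 reaches 45.5 in replicate 3, and no gene of group 11 or 13 exceeds 1.11.

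The libraries were then compared gene by gene. Across 11306 genes with a mean FPKM of at least 1, the correlation of log2(FPKM + 1) was 0.971 for replicates 1 and 2, 0.965 for 1 and 3 and 0.992 for 2 and 3. They run across genes of the same libraries and carry no p-value. The highest library was over 2 times the lowest for 1189 genes (10.5%). Replicates 2 and 3 alone differed by over 2 times for 152 genes (1.34%), against 720 for replicates 1 and 2 and 946 for 1 and 3. For 946 of the 1189 genes (79.6%) replicate 1 was the library farthest from the middle value. It was the lower one for 740 and the higher one for 206. That split depends on the scaling: replicate 1 was higher for 430 and lower for 381 after the libraries were brought to the same median, and higher for 79 and lower for 1954 after rescaling to a total of 1000000. Over all 11306 genes replicate 1 lay at a median of -0.12 from the mean of the others on the log2(FPKM + 1) scale, at 0.04 and -0.39 under these 2 rescalings.

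The spread was also described by level. Among 6648 genes with a mean from 1 to below 10, the median coefficient of variation over the 3 libraries was 18.2%. It was 14.6% for 4017 genes from 10 to below 100, 15.5% for 605 genes from 100 to below 1000 and 21.5% for the 36 genes of 1000 and above. With only replicates 2 and 3 the medians were lower in every band, at 8.26%, 5.49%, 3.98% and 5.59%. The median SD of 2 values tends to be smaller than that of 3, so part of this drop is built in. Counting error alone, which is a floor for the true spread, would give an expected 4.28%, 2.15%, 0.981% and 0.327%.

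Gene length went with the deviation of replicate 1. Of the genes over 2 times apart with replicate 1 farthest, the 740 lower there had a median implied length of 5934 bases. The 206 higher there had 1397. With all 11293 genes outside the mitochondrial set put in 5 equal groups by length, replicate 1 lay above the mean of the others by a median of 0.23 on the log2(FPKM + 1) scale in the shortest group. In the longest group it lay at -0.37. The share of genes lower in replicate 1 went from 25.3% through 51.5%, 66.5% and 77.1% to 86.5%. The opposite trend, from -0.19 to 0.20, was seen in replicate 3. The mean it was set against includes replicate 1, so part of this trend follows from replicate 1 itself. The difference between longest and shortest group, each against the mean of all 9 libraries of the series, was -0.40, 0.15 and 0.27 in the WT libraries and between -0.21 and 0.23 in the others. After the libraries were centred within each length group, a step added after the data were seen, 774 genes still differed by over 2 times, and replicate 1 was the farthest for 71.6% of them. The labels name an RNA integrity check but no values were seen here, and the part of RNA integrity in this trend was not tested.

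**Figure D4:**
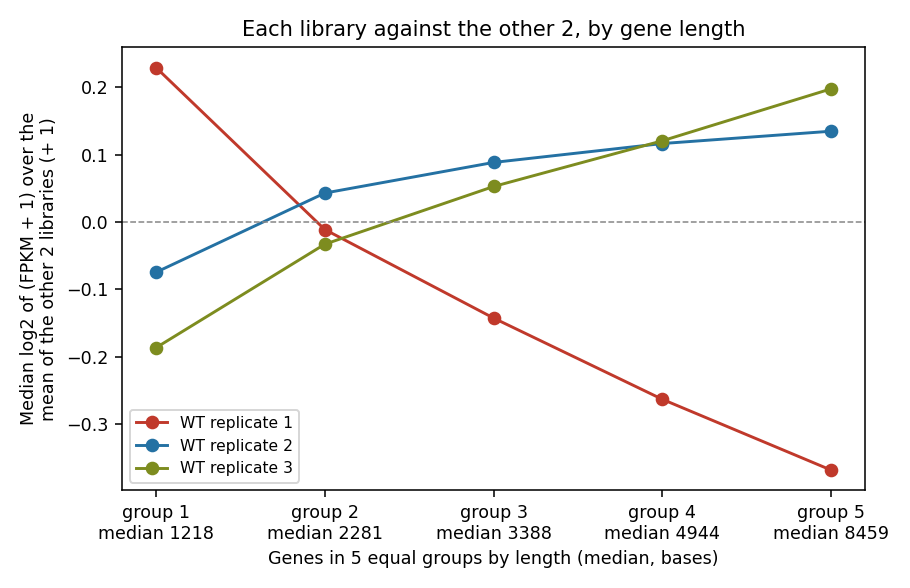
Median log2 ratio of each WT library to the mean of the other libraries, after adding 1 to each (vertical), in 5 equal groups of genes by length implied by the FPKM steps (horizontal, median length in bases). Replicate 1 goes from 0.23 in the shortest group to -0.37 in the longest. Replicates 2 and 3 go the other way, each against a mean that includes replicate 1.

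The 20 genes with the largest spread named the libraries that stood apart. Immediate-early genes, transcribed within minutes of a stimulus, were highest in replicate 1. Egr1 was at 71.0, 4.29 and 1.22, Nr4a1 at 9.92, 1.46 and 1.04, and Ier2 at 18.4, 4.52 and 3.25. Of 19 such genes 17 were highest there (15 after rescaling to a total of 1000000), and their sum was 312, 124 and 117. The stress gene Gadd45g was at 94.0, 16.9 and 19.5. The inducible heat shock genes Hspa1a (67.3, 4.44 and 18.3) and Hspa1b (85.5, 6.42 and 30.5), near-identical copies whose split is uncertain, were lowest in replicate 2.

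Other genes of this set moved in other libraries. Ces1g, a carboxylesterase, was at 3.76, 25.5 and 6.88 and the repressor Bcl6 at 3.10, 18.2 and 3.97, both high in replicate 2 only. Idi1, of sterol synthesis, was low in replicate 1 only (4.0, 22.2 and 19.1), as were Eif4ebp2, a brake on translation (5.79, 31.2 and 38.5), and the aminopeptidase Lnpep (0.648, 5.17 and 5.99). Cfd, Cox8b, Psca and Sprr1a were high in replicate 3, where Sprr1a, a cornified envelope protein of squamous epithelium, was at 13.02 against 0.288 and 0.895. Cox8b, a cytochrome oxidase subunit of muscle and brown fat, was at 0, 0 and 3.21. The mitochondrial ND3, ATP6, ND6 and COX2, described above, and Entpd4b complete the 20.

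**Figure D5:**
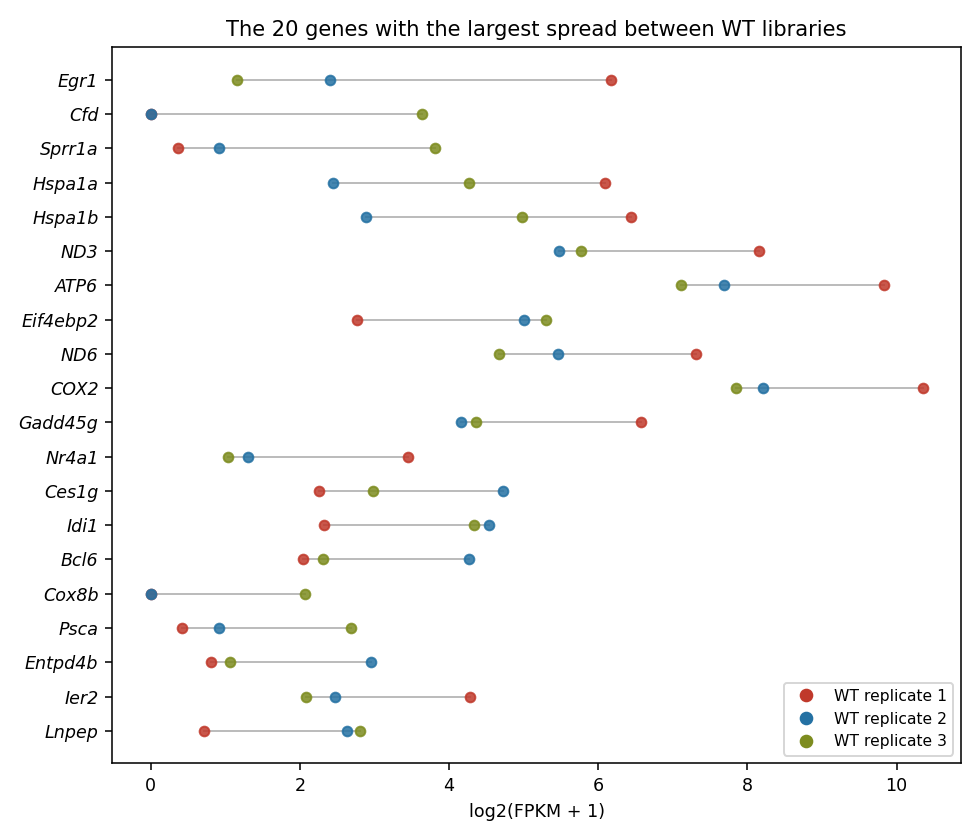
log2(FPKM + 1) (horizontal) in each WT library for the 20 genes with the largest SD on that scale, largest at the top, with a line from the lowest to the highest library. Replicate 1 is at the right end for Egr1, Nr4a1, Ier2, Gadd45g, both Hspa1 genes and 4 mitochondrial genes, and replicate 3 for Cfd, Cox8b, Psca and Sprr1a.

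At the other end, 20 genes with a mean of at least 10 had nearly identical FPKM in all 3 libraries. The libraries differed in summed FPKM, at 574720, 476970 and 463054, so this evenness holds on the FPKM scale only. Pnpla2, the adipose triglyceride lipase, was at 29.0, 29.0 and 28.9. Cat, the catalase of peroxisomes, was the highest of them at 485, 491 and 487. Acsm1, a medium-chain acyl-CoA synthetase of mitochondria, was at 93.3, 92.8 and 93.9, and Gcsh, of the glycine cleavage system, at 83.9, 83.0 and 83.2. Becn1 and Senp3 were also among them, and the largest coefficient of variation in the set was 0.825%. These were chosen for low spread from 4658 genes, so their evenness is a description. Of common reference genes, which were not chosen by spread, Actb was at 457, 275 and 291, Gapdh at 59.2, 81.5 and 81.2, and Hprt at 62.1, 56.6 and 54.0. Actb and Gapdh have many processed copies, which may take reads.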

How the data were processed

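Total RNA from whole kidney was isolated with TRIzol and the libraries were prepared using the VAHTS Universal V6 reagents, as the labels' protocols state. The FPKM values per gene symbol were deposited by the authors. Tools named in the submitters' processing notes, without roles, are R 3.2.0, HTSeq, HISAT2, fastp and DESeq2, and the build is GRCm39. The gene annotation, mapping settings and strand setting were not in the sources used here, and reads of overlapping genes on opposite strands therefore cannot be separated. Because FPKM is relative to the library total, abundant genes move the values of all others. Columns were matched to samples by name, with 0 value columns left without a sample.

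Whole reads and gene lengths were recovered from the FPKM steps of all 9 libraries within 0.03 reads, by a script tested on simulated data. The lengths are those the steps imply, up to a common factor. Intervals from counts cover counting error only. Spread is the SD of log2(FPKM + 1), with Python 3.11.15, numpy 2.4.6, pandas 2.3.3 and scipy 1.17.1. No comparison between groups and no test was made. The named genes were the 30 highest nuclear rows and the mitochondrial genes, up to 4 members of each of 46 lists (521 of 537 genes listed), more members of the isozyme, paralog, Hox and nuclear receptor lists, the 20 of largest spread with a mean of at least 1 and the 20 of smallest with a mean of at least 10. Some further list members, noncoding RNAs, family members, the promoter motifs and the length groups were chosen after their values were seen. Members and lists were chosen with earlier results of these data known. Predicted rows were counted but not named, and some genes that the rule selects are not reported here. Promoters come from RefSeq on GRCm38.p6; no coordinates of the deposited data were used. Of the gene symbols 24813 matched RefSeq and 1326 did not.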

Additional observations from a re-analysis of the deposited data

How the results depend on the processing

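No paired analysis was possible because no result comes from a test between groups. At an FPKM of at least 5 in all 3 libraries 6249 genes were present, and leaving out 1 library gave 10765 to 11042. The 100 highest rows held 37.6% without mitochondrial rows and 33.8% of recovered reads, and 45.7% to 50.6% with 1 library left out. The mitochondrial share was 12.7% of reads, and 16.2% to 21.2% of FPKM with 1 library left out. Genes differing by over 2 times numbered 8849 with no filter, 518 at a mean of at least 5, 2252 after rescaling to a total of 1000000 (TPM), 525 with 1 added to each value, 774 after centring within length groups, and 152 to 946 with 1 library left out; 152 is the count without replicate 1. Replicate 1 was the farthest library for 76.7% after rescaling to the same median, 90.0% at a mean of at least 5 and 71.6% after centring within length groups. Rescaling to that total took the summed levels to 21815 for proximal tubule, 4399 for thick ascending limb and 631 for principal cells. Leaving out 1 library gave 10801 to 10985, 1921 to 2458 and 306 to 322. The cause of these shifts was not tested. Limits on the levels are the deviation of replicate 1 with gene length and the urothelial and fat genes of replicate 3. Depth limits levels of rows with few reads.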

Other observations

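Nuclear receptors gave a further profile of the tissue, with 32 of 46 listed genes present. Hnf4a, which directs proximal tubule differentiation, was the highest at 158, 168 and 215 FPKM and exceeded Hnf4g by 89.0 ± 20.9 times (SD, n = 3). It was followed by the vitamin D receptor Vdr at 53.4, 64.3 and 60.5, by Esrra, which drives mitochondrial genes, at 57.0, 43.2 and 52.9, and by the bile acid receptor Nr1h4 at 35.3, 58.3 and 34.9. Vdr and Esrra changed places in replicate 1, so their order is not held. The estrogen receptor Esr1 was at 1.48, 1.88 and 1.82, and Esr2 and Pgr were below 0.08. The mineralocorticoid receptor Nr3c2 was at 1.15, 1.82 and 2.18, against 7.61, 13.6 and 13.1 for the glucocorticoid receptor Nr3c1.

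Among noncoding RNAs, Gas5 was at 114, 89.3 and 78.1, Malat1 at 57.5, 46.3 and 37.98 and Neat1 at 38.3, 40.4 and 27.5. Of 23 beta-defensin rows, antimicrobial peptides of epithelia, 4 were present, and 2 had a mean of at least 100: Defb1 at 182, 159 and 194 and Defb29 at 148, 129 and 115. Of 22 claudin rows, proteins of the tight junction, 2 reached that mean, Cldn2 of the proximal tubule at 86.7, 187 and 195 and Cldn10 at 166, 202 and 172. Of tubular injury markers, Havcr1 (KIM-1) was at 0.282, 0.696 and 0.116 and Lcn2 at 1.53, 3.81 and 0.758, both highest in replicate 2, while Spp1 (osteopontin) was at 323, 284 and 273. Clock genes summed to 110, 111 and 119, while single members differed in both directions: Per2 was at 5.47, 1.83 and 3.42, Per1 at 4.01, 1.80 and 2.47, and Clock at 4.63, 7.51 and 9.0.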
